A study of Homo sapiens with 15 samples.

Results

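TCIPP, tris(2-chloroisopropyl) phosphate, was set against TCEP, tris(2-chloroethyl) phosphate, in HepG2 cells, a line from a human liver tumour. Both are chlorinated organophosphate flame retardants, and TCIPP differs from TCEP by a methyl group on each chloroalkyl arm. The comparison used 12 of the 15 RNA-seq libraries of the study: the 6 libraries of cells given TCIPP at 2.5 or 25 µM and the 6 of cells given TCEP at 25 or 250 µM, chosen by the labelled compound and not by any measured value. Exposure lasted 72 h in every group. The other 3 libraries, from cells given 0.1% dimethyl sulfoxide (DMSO) alone, are shown as levels for some genes, and no group was tested against them. Each concentration had 3 libraries from cultures seeded, treated and extracted separately. The lower concentration of each compound is called the low level and the higher one the high level. At both levels TCEP was given at 10 times the concentration of TCIPP, so the difference between the libraries holds compound and concentration together, and the 2 cannot be told apart except at 25 µM, the 1 concentration that both compounds share. The labels do not say which cultures shared a plate, a day or a sequencing lane, and compound cannot be told apart from any such grouping.

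Hepatocyte-like cells answer foreign chemicals through several layers of gene control. Immediate early genes such as FOS and JUN encode transcription factors and feedback inhibitors that are switched on within minutes of a signal and whose short-lived messages follow kinase activity. Sterol regulatory element binding proteins (SREBPs) drive the genes for cholesterol and fatty acid supply, circadian clock genes form transcriptional feedback loops through E-box sequences, and heat shock, oxidative stress and amino acid responses each have their own regulators. HepG2 cells carry all of these circuits, while most drug-metabolizing cytochromes are low in this line.

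Promoter stretches of 4 genes are shown because they hold the letters of an element that can be bound by the regulators of 3 of the gene groups described here: the cAMP response element TGACGTCA in DUSP1 and JUND (immediate early), the sterol regulatory element TCACNCCAC in SREBF2 (cholesterol supply) and the E-box CACGTG in PER1 (clock). The element is in capitals, each sequence is written 5′ to 3′ on the strand of the gene and lies upstream of its start, and all are RefSeq sequence of GRCh38.p14.
DUSP1, chr5:172771253-172771380, minus strand: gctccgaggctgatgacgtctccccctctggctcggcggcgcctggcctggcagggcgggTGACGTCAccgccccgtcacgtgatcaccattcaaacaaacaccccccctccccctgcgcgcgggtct
JUND, chr19:18281755-18281872, minus strand: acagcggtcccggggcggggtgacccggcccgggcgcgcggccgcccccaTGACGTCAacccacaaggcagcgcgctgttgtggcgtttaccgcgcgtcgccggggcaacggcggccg
SREBF2, chr22:41832912-41833040, plus strand: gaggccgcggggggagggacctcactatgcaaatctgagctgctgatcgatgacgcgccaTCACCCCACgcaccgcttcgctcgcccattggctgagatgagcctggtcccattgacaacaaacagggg
PER1, chr17:8152512-8152637, minus strand: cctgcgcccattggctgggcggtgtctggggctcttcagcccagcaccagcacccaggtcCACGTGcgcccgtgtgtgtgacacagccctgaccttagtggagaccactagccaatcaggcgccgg

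Counted on both strands over 27305 RefSeq promoter windows of 300 bases, TGACGTCA occurred in 1.98%, TCACNCCAC (N is any base) in 1.15% and CACGTG in 7.43%. The cAMP response element lay in 2 of the 6 immediate early promoters whose genes rose (DUSP1 and JUND), the sterol element in 1 of the 3 cholesterol promoters matched to the table (SREBF2), and the E-box in 2 of the 5 clock promoters (PER1 and BHLHE40). The DUSP1 stretch also holds CACGTG in lower case. These matches are descriptions of letters, and binding was not measured.

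The bulk properties of the libraries of the 2 compounds overlapped. The 12 libraries held 5353963 to 26771751 exon reads. Mitochondrial reads made up 6.54% ± 0.614 of exon reads with TCIPP and 6.38% ± 0.343 with TCEP (SD, n = 6 each; two-sided exact permutation test within levels, p = 0.415), and reads in introns made up 8.55% ± 0.659 of gene reads with TCIPP and 8.37% ± 0.283 with TCEP (SD, n = 6 each; exact p = 0.48). Uniquely mapped exon reads made up 86.63% ± 0.150 with TCIPP and 86.46% ± 0.184 with TCEP (SD, n = 6 each; exact p = 0.08). Unlike the gene tests below, these permutation tests did not match libraries by replicate number. All 9 hepatocyte and HepG2 markers were measured, with albumin (ALB) the highest in reads, and 2 of the 9 passed as lower with TCIPP and 0 as higher. Several defining markers of other liver cells were at 0: no read fell on PTPRC (leukocytes), CLEC4G (endothelium), CFTR (cholangiocytes) or COL1A2, COL3A1, DCN and LUM (fibroblasts). These were 1 of 10 leukocyte, 1 of 8 endothelial, 1 of 8 cholangiocyte and 4 of 10 fibroblast and stellate markers. Other markers had reads, and 2 leukocyte, 3 endothelial, 5 cholangiocyte and 5 fibroblast and stellate markers were high enough to test. The summed endothelial markers had counts-per-million (CPM) values of 3.05 to 5.45 with TCIPP and 2.68 to 5.95 with TCEP. The leukocyte sum of 4104 to 4712 CPM with TCIPP and 4301 to 4795 CPM with TCEP came almost wholly from LYZ (mean 4452 CPM), a lysozyme gene. Cholangiocyte markers summed to 540 to 626 CPM with TCIPP and 537 to 633 CPM with TCEP, led by SOX9 (mean 215 CPM), and fibroblast and stellate markers to 50.9 to 67.4 CPM with TCIPP and 53.9 to 67.5 CPM with TCEP, led by ACTA2 (mean 20.7 CPM). Of these 4 marker lists 1 fibroblast and stellate and 1 cholangiocyte gene passed as lower with TCIPP and none as higher, and the part of such cells or genes in the results was not tested.

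Over both levels, 777 of 12510 genes tested differed between TCIPP and TCEP: 382 were higher and 395 lower with TCIPP (edgeR quasi-likelihood test with level and replicate number as covariates, Benjamini-Hochberg adjusted p under 0.05, called "passed" from here on). That is 6.21% of the genes tested, 3.05% higher and 3.16% lower. List counts over both levels are read beside these shares, unless an offset (described below) is named. List counts at 25 µM are read beside 8.15% higher and 8.59% lower. Where a gene is said to rise or fall with TCIPP, this means relative to TCEP. It does not say which compound moved the gene from its DMSO level. In bulk libraries, less RNA per cell and fewer cells of a kind cannot be told apart. The differences were small. The median absolute difference of the genes that passed was 0.18 on the log2 scale, and 4 higher and 6 lower genes differed by more than 0.5 on that scale. The 95% interval of a gene reached a median of 0.13 to either side. In 118 genes, 0.943% of those tested, the 6 TCIPP libraries did not overlap the 6 TCEP libraries. Of the genes that passed, 320 higher and 320 lower ones had the same direction in all 6 pairs of libraries with the same level and number. Over all genes, 6.50% were higher and 6.49% lower with TCIPP in all 6 pairs.

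The calls rest on comparing libraries with the same replicate number, which deviated together from their group means. Without the replicate block no gene passed (0 of 12510 with edgeR, with 1466 at an unadjusted p under 0.05), and with it 2840 genes had an unadjusted p under 0.05. DESeq2 with the same covariates gave 646 genes, of which 567 were among the 777. With 1 library left out, the count ran from 303 without TCEP 25 µM number 1 to 1078 without TCIPP 25 µM number 3. It was also more than 1.5 times smaller without TCIPP 2.5 µM number 2 (313) or 3 (336), TCIPP 25 µM number 1 (380), and TCEP 250 µM number 1 (485) or 2 (350). Leaving out the 4 treated libraries of number 1, 2 or 3 gave 122, 127 or 759 genes.

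The base composition of the genes moved with the comparison. Genes higher with TCIPP had a median GC content of 56.4% over their exons, genes lower with TCIPP 40.4%, and all genes tested 47.9%. Split by GC content into 5 bins of equal size, the richest bin held 165 higher genes and 1 lower gene, and the poorest bin 5 higher and 224 lower. Genes higher with TCIPP also had longer exon sequence, with a median of 6990.5 bases, against 4131 bases for those lower and 4643 bases for all genes.

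**Figure D1:**
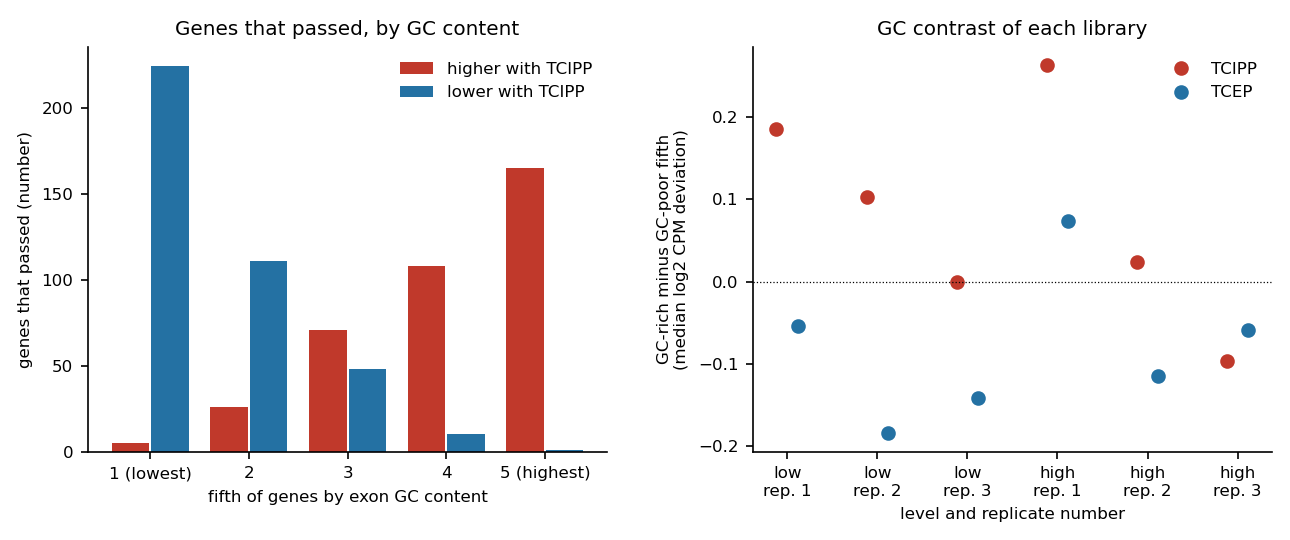
Left, the number of genes that passed (y axis) in each of 5 equal bins of the tested genes by exon GC content (x axis), higher with TCIPP in red and lower in blue. Right, the GC contrast of each of the 12 libraries, the median log2 CPM deviation of the GC-richest bin minus that of the GC-poorest bin (y axis), by level and replicate number (x axis). The red TCIPP point lies above the blue TCEP point in every pair except the high level with number 3.

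The same contrast could be read in each library. The GC-richest bin stood above the GC-poorest bin by 0.08 ± 0.131 on the log2 scale in TCIPP libraries and by -0.08 ± 0.0902 in TCEP libraries (SD, n = 6 each). It was higher with TCIPP in 5 of the 6 pairs, by 0.14 to 0.29, and lower by 0.04 in the pair of high-level libraries numbered 3. When each library's smooth dependence on exon GC content and exon length was taken out as an offset, an alternative added after the data were seen, 202 of 12321 genes passed, 129 higher (1.05%) and 73 lower (0.592%). Of the 777 genes, 140 passed again, 86 higher and 54 lower. The part of this composition trend in each result was not tested beyond the offset, and the outcome under the offset is given with the gene groups below.

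All 382 higher and 395 lower genes had the same sign at the low and at the high level in the model of all 12 libraries, which their selection on the difference over both levels largely fixes. The 2 levels hold separate libraries, so each was also read alone. Fitted on its 6 libraries, the low level gave 2358 genes at an unadjusted p under 0.05, and 83.6% of them had the same sign at the high level. The high level alone gave 1406 such genes, and 82.1% had the same sign at the low level, where 63.5% of all genes shared their sign. The 542 genes at that threshold in both with the same sign were 23.0% of the low-level list and 38.5% of the high-level list, and 21 genes had opposite signs. These fits took no offset. In the model of all 12 libraries the median difference rose with GC content at both levels. From the GC-poorest to the GC-richest bin it went from -0.10 to 0.12 at the low level and from -0.06 to 0.04 at the high level. The part of this trend in the shared signs was not tested.

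Within the model of all 12 libraries, 54 genes (0.432%) passed for TCIPP 2.5 µM against TCEP 25 µM, 39 higher (0.312%) and 15 lower (0.120%), and 53 genes (0.424%) passed for TCIPP 25 µM against TCEP 250 µM, 43 higher (0.344%) and 10 lower (0.0799%). Neither split was stable. At the low level DESeq2 gave 82 higher and 92 lower genes, the fit without the low-count filter 207 and 305, and that level alone 137 and 159. At the high level scaling to library totals gave 43 higher and 20 lower genes, DESeq2 68 and 44, and the fit without the filter 216 and 179. The difference between the levels was tested itself as an interaction. No gene passed it with edgeR (691 at an unadjusted p under 0.05), 2 passed with DESeq2 and none with limma-voom. The 95% interval of the interaction reached a median of 0.27 to either side on the log2 scale, so a change of the compound difference smaller than that could not be seen in a typical gene.

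**Figure D2:**
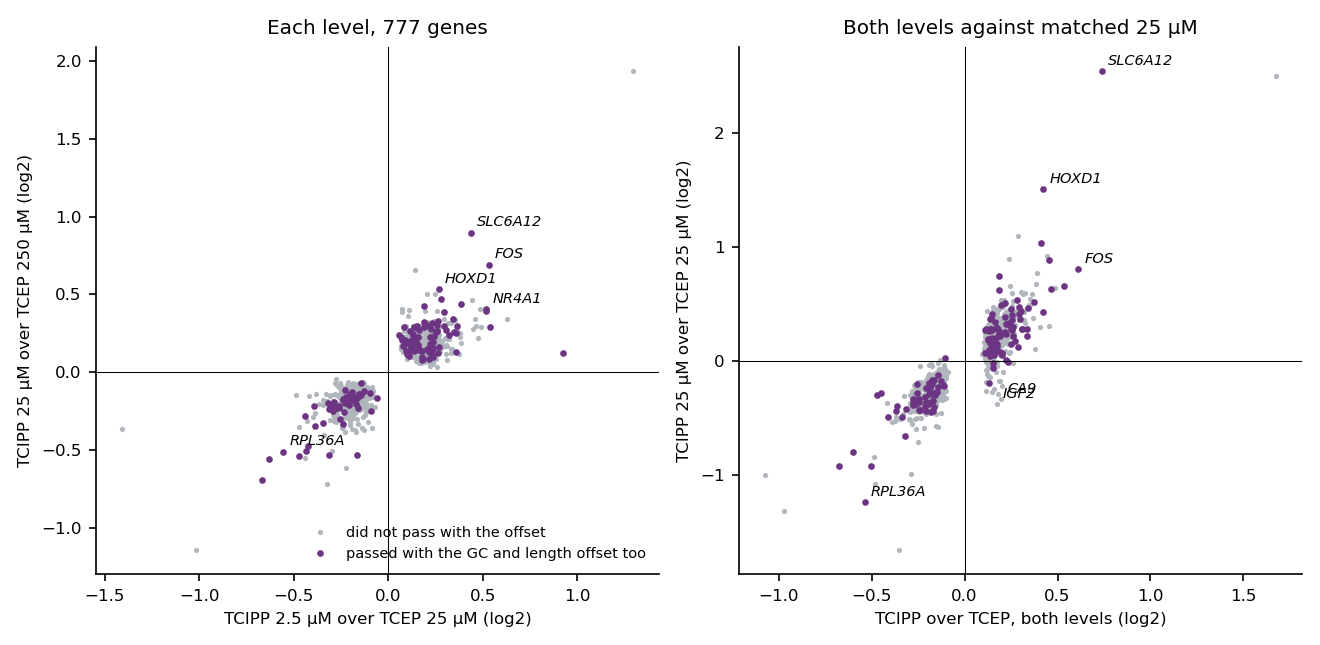
Each point is 1 of the 777 genes that passed over both levels, purple where it also passed with the GC and length offset and grey where it did not. Left, the log2 fold change of TCIPP 2.5 µM over TCEP 25 µM (x axis) against that of TCIPP 25 µM over TCEP 250 µM (y axis), where every point lies at the lower left or upper right of 0. Right, the log2 fold change over both levels (x axis) against that of TCIPP 25 µM over TCEP 25 µM (y axis), where CA9 and IGF2 lie right of 0 and below it.

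Of 26 immediate early genes tested, 6 rose with TCIPP and none fell (FOS, JUN, JUND, NR4A1, DUSP1 and ZFP36). All 26 had a positive difference, with a median of 0.14 on the log2 scale, beside 6293 of 12510 positive and a median of 0.0012 over all genes tested. With the offset 5 of the 6 passed and the median was 0.10, and JUND did not pass. At 25 µM 10 of the 26 were higher with TCIPP and 2 lower, with a median of 0.15, and DUSP1 did not pass there (0.12, edgeR adjusted p = 0.163).

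FOS, on chromosome 14 at 75745477 to 75748933 (hg19), encodes a subunit of the AP-1 transcription factor. Its lowest, median and highest levels were 11.1, 13.4 and 16.8 CPM in TCIPP libraries and 7.19, 8.84 and 10.3 CPM in TCEP libraries. Every TCIPP library was above every TCEP library. The 3 DMSO libraries spanned 8.29 to 15.9 CPM and overlapped both. FOS was 1.53-fold higher with TCIPP (log2 0.61 ± 0.083 SE, adjusted p = 0.00206 by edgeR), it was higher in 6 of 6 pairs, and the difference with the offset was 0.60.

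JUN, the partner of FOS in AP-1, had 132, 143 and 165 CPM as lowest, median and highest TCIPP values and 112, 121 and 129 CPM with TCEP, again without overlap. Its log2 difference was 0.25 ± 0.037 SE (edgeR adjusted p = 0.00206). NR4A1, an orphan nuclear receptor induced by growth and stress signals, spanned 13.3 to 22.0 CPM with TCIPP, median 18.9, and 9.44 to 16.4 CPM with TCEP, median 12.7. These groups overlapped, but NR4A1 was higher with TCIPP in 6 of 6 pairs, by 0.46 ± 0.077 on the log2 scale (edgeR adjusted p = 0.00343). The NR4A1 spread within each compound followed the replicate number, with number 2 lowest at each concentration.

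The feedback genes of this group rose as well. DUSP1, a phosphatase that turns off MAP kinases, spanned 87.5 to 121 CPM with TCIPP and 74.5 to 102 CPM with TCEP, a log2 difference of 0.28 ± 0.041 SE (edgeR adjusted p = 0.00206). In DUSP1, 20.9% of exon reads mapped to 1 place only, so its reads may be shared with similar sequence. ZFP36, which binds and destabilizes AU-rich messages, was 0.31 ± 0.061 higher (edgeR adjusted p = 0.00757). FOS, JUN, NR4A1 and DUSP1 passed in each of the 12 fits that left out 1 library, and ZFP36 in 11 of them, while JUND passed in 4 of the 12.

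**Figure D3:**
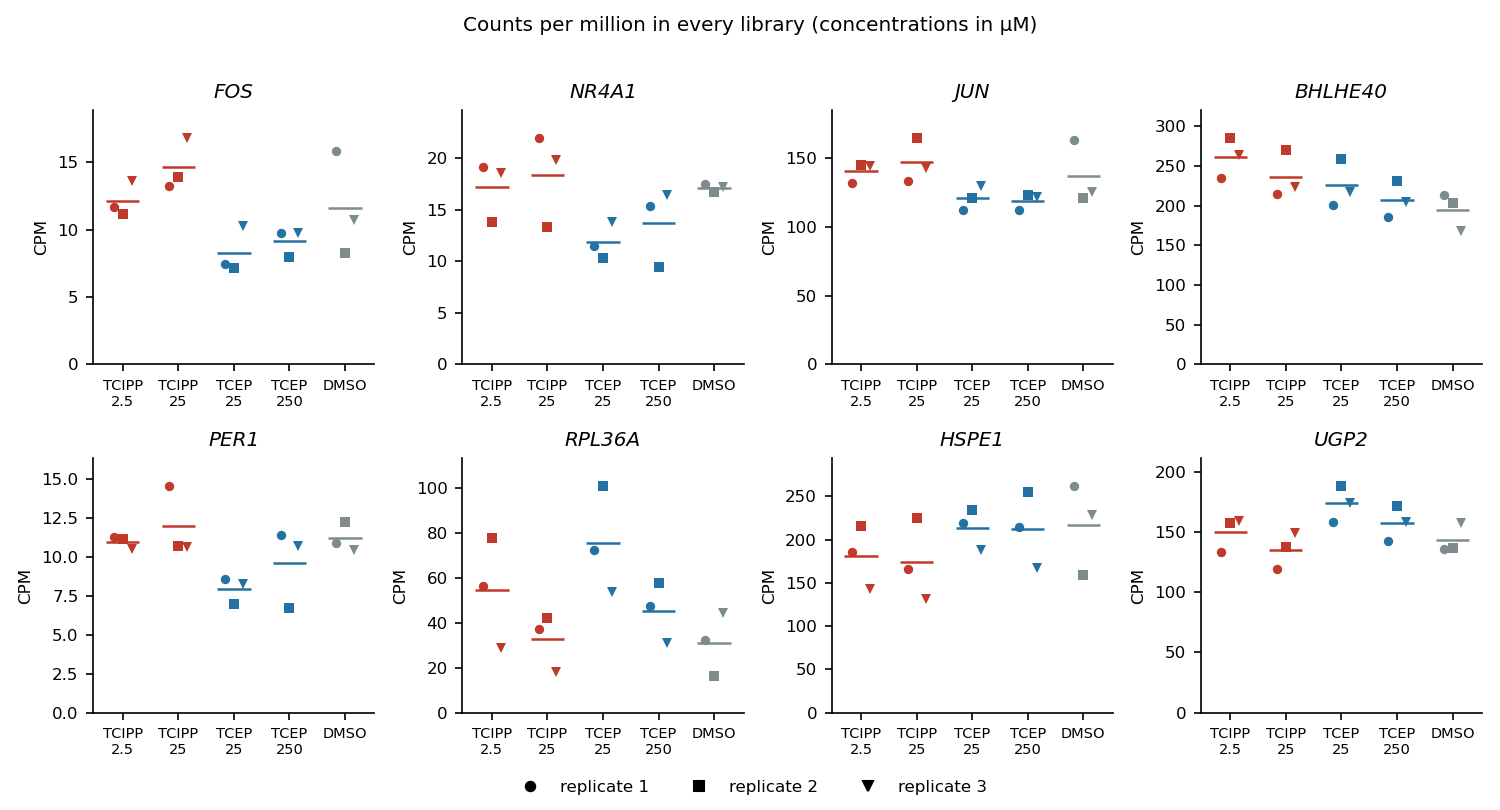
CPM (y axes, from 0) of 8 genes in every library, by compound and concentration in µM (x axes), with 1 marker shape for each replicate number and a line at the mean of each group of 3. FOS and JUN in all 6 TCIPP libraries (red) lie above all 6 TCEP libraries (blue), while RPL36A and HSPE1 overlap between the compounds, with number 2 highest and number 3 lowest at each treated concentration.

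Of 26 genes of cholesterol supply, 5 rose with TCIPP and none fell (among those that rose were SREBF2, SCAP and DHCR7). The median of the 26 was 0.01, and 13 were positive and 13 negative. With the offset 1 was higher and none was lower.

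SREBF2, which encodes the sterol-responsive transcription factor SREBP2 and whose promoter carries the sterol element shown above, spanned 189 to 217 CPM with TCIPP and 171 to 187 CPM with TCEP, without overlap (log2 0.15 ± 0.035 SE, edgeR adjusted p = 0.0221). SCAP, the escort protein of SREBP, differed by 0.16 ± 0.039 and DHCR7, the last enzyme of cholesterol synthesis, by 0.15 ± 0.037 (edgeR adjusted p = 0.0221 and 0.0283). HMGCS1, an enzyme early in the pathway, averaged 201 ± 9.76 CPM with TCIPP and 210 ± 12.7 CPM with TCEP (SD, n = 6 each), and the 95% interval of its log2 difference ran from -0.13 to 0.02. With the offset SREBF2 (0.06), SCAP (0.08) and DHCR7 (0.10) did not pass. SREBF2, SCAP and DHCR7 passed in 7, 6 and 6 of the 12 fits without 1 library.

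Of 20 genes of fatty acid synthesis, 5 rose (FASN, SCD, ACLY, SREBF1 and LPIN2) and 1 fell (ELOVL6), with a median of 0.09. With the offset SCD alone of the list passed, and the median was 0.05. FASN, the multienzyme that builds palmitate, spanned 395 to 543 CPM with TCIPP and 321 to 463 CPM with TCEP (log2 0.19 ± 0.034 SE, edgeR adjusted p = 0.00462). Its GC content was 65.2%, and its difference with the offset was 0.05 and did not pass. SCD, which desaturates palmitate and stearate, had 46.5% GC, and its difference of 0.12 passed with and without the offset (0.13 with it). SCD passed in 6 of the 12 fits without 1 library.

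Of 17 clock genes tested, 5 rose with TCIPP and none fell (PER1, PER2, NR1D1, NPAS2 and BHLHE40), and the median was 0.04. PER1 and PER2 encode repressors of the clock, NR1D1 a nuclear receptor that represses BMAL1, NPAS2 an activator and BHLHE40 a repressor that binds E-boxes. PER1 spanned 10.5 to 14.6 CPM with TCIPP, median 10.9, and 6.74 to 11.4 CPM with TCEP, median 8.41, and was higher with TCIPP in 5 of 6 pairs (log2 0.36 ± 0.099 SE, edgeR adjusted p = 0.0369). BHLHE40 spanned 215 to 286 CPM with TCIPP and 186 to 259 CPM with TCEP, overlapping, and was higher in 6 of 6 pairs (0.20 ± 0.029 SE, edgeR adjusted p = 0.00206). With the offset 2 of the 17 were higher and none was lower, with a median of 0.08. BHLHE40 passed with it (0.19), and PER1 (0.26), PER2 (0.16), NR1D1 (0.20) and NPAS2 (0.16) did not. PER1, PER2 and NR1D1 passed in 2, 3 and 1 of the 12 fits without 1 library, and NPAS2 and BHLHE40 in 12.

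**Figure D4:**
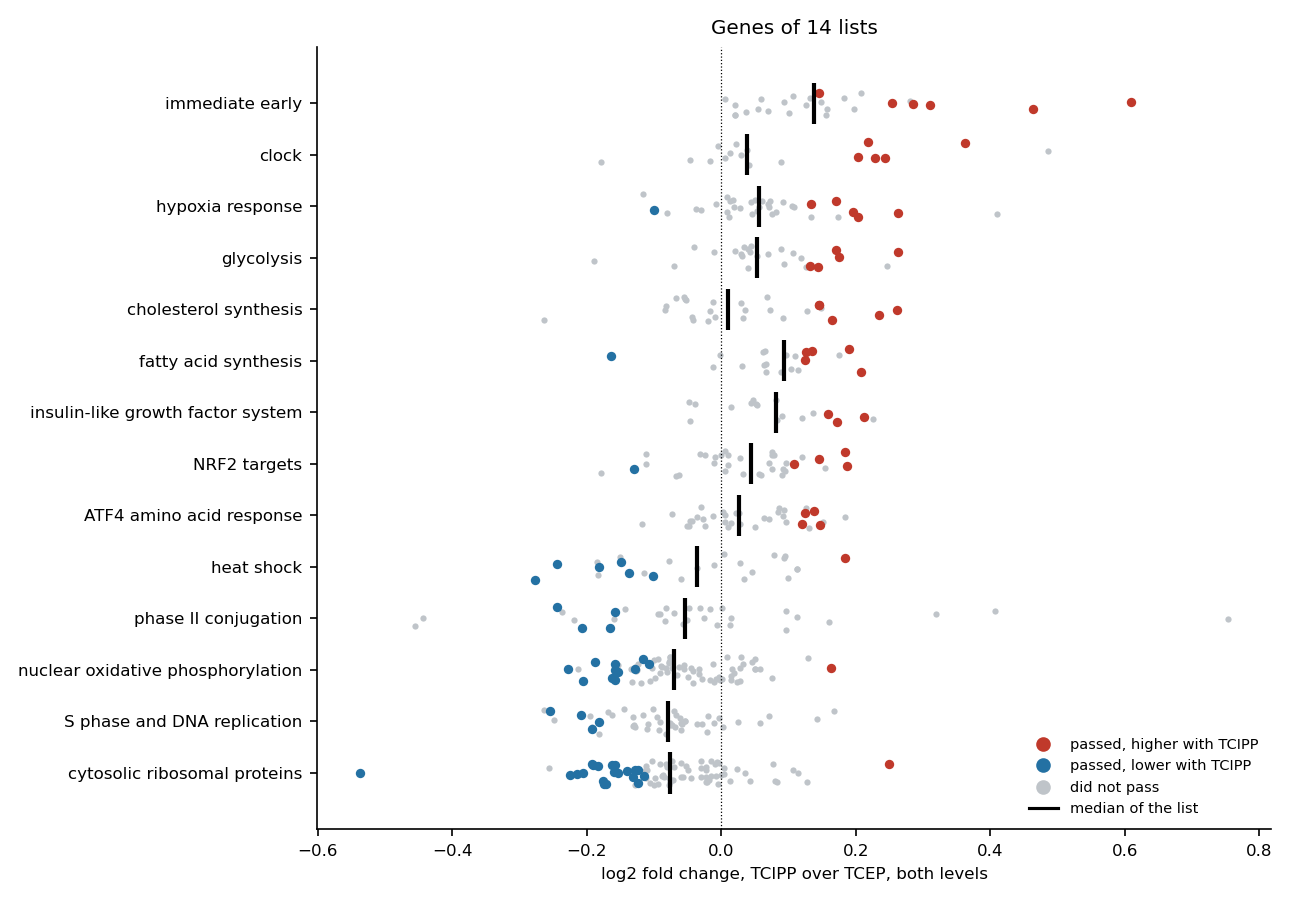
Log2 fold change of TCIPP over TCEP over both levels (x axis) for the genes of 14 lists (rows), red where a gene passed and was higher with TCIPP, blue where it passed and was lower, grey where it did not pass, with a black line at the median of the list. All immediate early genes lie to the right of 0, and 66 of the 79 cytosolic ribosomal protein genes lie to the left.

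The hypoxia and glycolysis lists had medians of opposite sign over both levels and at the shared 25 µM. Over both levels 5 of 35 hypoxia genes rose (CA9, BHLHE40, PFKFB3 and PFKFB4 among them) and 1 fell (P4HA1), with a median of 0.06, and 5 of 25 glycolysis genes rose (GPI, ALDOC, SLC16A3, PFKFB3 and PFKFB4) and none fell, with a median of 0.05. With the offset 4 hypoxia genes and 1 glycolysis gene were higher and none was lower. PFKFB3, PFKFB4 and GPI passed in all 12 fits without 1 library, SLC16A3 in 7 of them, ALDOC in 5 and P4HA1 in 2. At 25 µM the same lists ran the other way, with 2 of 35 hypoxia genes higher and 15 lower (median -0.19) and 2 of 25 glycolysis genes higher and 11 lower (median -0.16). CA9, a carbonic anhydrase and textbook hypoxia target, averaged 86.9 ± 9.38 CPM at 2.5 µM TCIPP and 58.7 ± 4.43 CPM at 25 µM TCIPP, against 75.0 ± 9.24 CPM at 25 µM TCEP and 52.1 ± 8.10 CPM at 250 µM TCEP (SD, n = 3 each). TCIPP was thus above TCEP at each level (log2 0.20 ± 0.049 SE, edgeR adjusted p = 0.0265), and below it at the shared 25 µM (log2 -0.33, edgeR adjusted p = 0.00485). In the model of both levels CA9 was lower at the high than at the low level (-0.52). Its difference over both levels did not pass with the offset (0.16) and passed in 4 of the 12 fits without 1 library.

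IGF2, a fetal growth factor made by HepG2 cells, followed the same order. It averaged 6861 ± 2211 CPM at 2.5 µM TCIPP and 4562 ± 989 CPM at 25 µM TCIPP, against 5890 ± 1018 CPM at 25 µM TCEP and 4092 ± 945 CPM at 250 µM TCEP (SD, n = 3 each). Its log2 difference was 0.17 over both levels and -0.38 at 25 µM (edgeR adjusted p = 0.0271 and 0.000744), and the difference over both levels was 0.07 with the offset and did not pass. Of the 382 genes higher over both levels, 10 were lower at 25 µM past the threshold and 245 were higher. Of the 395 lower genes, 294 were lower at 25 µM and none was higher. PFKFB3, which makes the activator of phosphofructokinase, was higher with TCIPP in both comparisons, by 0.26 over both levels and 0.22 at 25 µM, without overlap between the compounds over both levels (87.1 to 98.9 CPM with TCIPP and 70.0 to 80.7 CPM with TCEP). It passed with the offset too (0.20).

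At the shared concentration of 25 µM, 2094 genes differed (16.7%), 1019 higher (8.15%) and 1075 lower (8.59%) with TCIPP, and 1799 genes passed with the offset. This sets the higher TCIPP concentration against the lower TCEP concentration. Among the largest changes were SLC6A12, a betaine and GABA transporter (log2 2.54), HOXD1, a homeobox transcription factor (1.5), and SLC16A6, a monocarboxylate carrier (-1.66). In the model of both levels the high level differed from the low level by 1.90 for SLC6A12, 1.11 for HOXD1 and -1.20 for SLC16A6 on the log2 scale. SLC6A12 averaged 5.20 ± 3.14 CPM at 2.5 µM and 24.3 ± 25.2 CPM at 25 µM TCIPP, against 3.73 ± 2.77 CPM at 25 µM and 11.9 ± 9.69 CPM at 250 µM TCEP, and 22.8 ± 12.9 CPM with DMSO (SD, n = 3 each). HOXD1 averaged 20.1 ± 9.28 CPM at 2.5 µM and 45.7 ± 18.7 CPM at 25 µM TCIPP, against 15.8 ± 4.28 CPM at 25 µM and 31.3 ± 11.5 CPM at 250 µM TCEP, and 41.0 ± 15.9 CPM with DMSO (SD, n = 3 each). Both passed over both levels too, SLC6A12 by 0.74 and HOXD1 by 0.42, and with the offset (0.69 and 0.42). Without TCIPP 25 µM number 1, the SLC6A12 difference over both levels was 0.42 and did not pass, and it passed in 9 of the 12 fits without 1 library.

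Of the 35 genes of the amino acid response driven by ATF4, 22 were higher and none lower at 25 µM, with a median of 0.22, beside a median of -0.004 over all genes. The shares over all genes at 25 µM were 8.15% higher and 8.59% lower. Over both levels 4 of the 35 rose (TRIB3, SLC7A5, SLC7A1 and GDF15), with a median of 0.03. TRIB3, a pseudokinase induced by ATF4, was higher by 0.44 at 25 µM and by 0.12 over both levels. Of 34 targets of NRF2, the regulator of antioxidant genes, 20 were higher and 1 lower at 25 µM, with a median of 0.20, while 4 rose (OSGIN1, GPX2, ABCC2 and GSR) and 1 fell (TXN) over both levels, with a median of 0.04. TXN, thioredoxin, fell by 0.13 and had the opposite sign with the offset (0.035), and GPX2 had 11.8% unique exon reads. With the offset 1 of the ATF4 genes and 5 of the NRF2 targets were higher over both levels, and none was lower. TRIB3, SLC7A5, SLC7A1, GDF15 and OSGIN1 did not pass with it, while GPX2, ABCC2 and GSR did. On unique exon reads GPX2 differed by 0.08 and did not pass. In the 12 fits without 1 library, TRIB3 and GDF15 passed in 4 each, OSGIN1 and GPX2 in 3 each, GSR in 2 and SLC7A1 in 1. SLC7A5 passed in 12, ABCC2 in 11 and TXN in 8 of them. NQO1, an NRF2 target, differed by -0.03 over both levels (95% interval -0.09 to 0.03) and by 0.15 at 25 µM (edgeR adjusted p = 0.0226).

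Of 18 drug transporters 2 rose and none fell: ABCC1 and ABCC2, which pump glutathione and other conjugates out of the cell. They were 11.1% of this list, beside 3.05% of all genes tested. ABCC1 spanned 121 to 137 CPM with TCIPP and 100 to 113 CPM with TCEP, without overlap (log2 0.21 ± 0.033 SE, edgeR adjusted p = 0.00272), and both passed with the offset. Of 19 esterases, the class of enzyme that cleaves organophosphates and other esters, CES1 rose (0.13) and PON2 and ESD fell (-0.15 each), and none of these passed with the offset. They were 5.26% higher and 10.5% lower, beside 3.05% and 3.16% of all genes tested. In the 12 fits without 1 library, ESD passed in 11, PON2 in 5 and CES1 in 4. PON1, ACHE and BCHE were too low to test, with 29, 26 and 1 exon reads summed over the 6 TCIPP libraries and 45, 17 and 0 over the 6 TCEP libraries.

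Several classical markers of xenobiotic and stress responses did not pass over both levels. CYP1A1, the classical target of the aryl hydrocarbon receptor, averaged 5.65 ± 2.81 CPM with TCIPP and 4.81 ± 2.48 CPM with TCEP (SD, n = 6 each), and its 95% interval on the log2 scale ran from -0.17 to 0.51. CDKN1A, the p53 target p21, had an interval of -0.04 to 0.16, HMOX1 of -0.09 to 0.16 and MKI67, a proliferation marker, of -0.15 to 0.10. At 25 µM CYP1A1 was higher with TCIPP by 0.82 and HMOX1 lower by 0.45 on the log2 scale (edgeR adjusted p = 0.0289 and 0.00164). CYP3A4, CYP2B6 and CYP7A1 were too low to test.

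Genes of the ribosome lay mostly on the TCEP side. Of 79 cytosolic ribosomal protein genes 20 fell and 1 rose, 66 of the 79 differences were negative, and the median was -0.08. With the offset 10 fell and 1 rose, and the median was -0.05. RPL22 spanned 605 to 794 CPM with TCIPP, median 723, and 718 to 949 CPM with TCEP, median 796. The groups overlapped, but RPL22 was lower in all 6 pairs, by 0.19 on the log2 scale (SE 0.029, edgeR adjusted p = 0.0023), also with the offset. RPS24 fell by 0.21 (SE 0.040, edgeR adjusted p = 0.0056) and passed with the offset.

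RPL36A gave the largest difference of the ribosomal list, -0.54 ± 0.069 SE (edgeR adjusted p = 0.00206). It spanned 18.3 to 77.6 CPM with TCIPP and 31.0 to 101 CPM with TCEP. In RPL36A 5.61% of exon reads were unique, and its level was highest in number 2 and lowest in number 3 at each treated concentration. At 25 µM, 50 of the 79 ribosomal protein genes were lower with TCIPP and none was higher, with a median of -0.18.

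Genes of oxidative phosphorylation and heat shock passed mostly as lower with TCIPP. Of 76 nuclear genes for respiratory chain and ATP synthase subunits 11 fell and 1 rose (CYC1), with a median of -0.07, and with the offset none passed in either direction and the median was -0.03. None of the 13 genes of the mitochondrial genome passed, and with the offset 3 were higher. Of 25 heat shock genes 6 fell (HSPE1, HSP90AA1, HSPD1, HSPA4, DNAJA1 and CHORDC1) and HSF1, the master regulator, rose. Among all 25 the differences were 11 positive and 14 negative, with a median of -0.04. HSP90AA1, the inducible cytosolic HSP90, spanned 964 to 1325 CPM with TCIPP and 1218 to 1530 CPM with TCEP, and averaged 1572 ± 63.3 CPM with DMSO (SD, n = 3). It was lower with TCIPP in all 6 pairs, by 0.24 (SE 0.042, edgeR adjusted p = 0.00406). HSPE1, the mitochondrial co-chaperonin of HSPD1, fell by 0.28 (SE 0.043, edgeR adjusted p = 0.00272) and HSPD1 by 0.14 (SE 0.028, edgeR adjusted p = 0.0101). HSP90AA1 and HSPE1 passed with the offset, and the other 4 that fell and HSF1 did not. In the 12 fits without 1 library, HSP90AA1, HSPE1 and HSPD1 passed in 12, DNAJA1, CHORDC1 and HSF1 in 4 each and HSPA4 in 1.

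Of 48 genes of S phase 4 fell with TCIPP (PCNA, RFC4 and RRM1 among them), none rose, and 42 differences were negative, with a median of -0.08, and -0.07 with the offset. PCNA, the sliding clamp of DNA polymerase, spanned 141 to 225 CPM with TCIPP and 169 to 252 CPM with TCEP and fell by 0.21 (SE 0.044, edgeR adjusted p = 0.0106). It passed in all 12 fits without 1 library, RRM1 in 3 of them and RFC4 in 2. Of 32 genes of phase II conjugation 4 fell (UGT2B10, UGT2A3, TPMT and HNMT) and none rose. All 4 had 35.6% to 40.2% GC, and none passed with the offset. UGT2B10 and HNMT passed in all 12 fits without 1 library, TPMT in 6 of them and UGT2A3 in 3. The fibrinogen genes FGB and FGG fell by 0.21 and 0.19 and did not pass with the offset, while TFPI, an inhibitor of coagulation (-0.18), and ORM1, an acute phase protein (-0.20), did. AFP, alpha-fetoprotein, and SPP1, osteopontin, fell by 0.11 and 0.14, and both had the opposite sign with the offset (0.0072 and 0.013). AFP passed in 3 of the 12 fits without 1 library and SPP1 in all 12.

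Of 50 G2 and M phase genes PLK1, a mitotic kinase, rose (0.15) and ANLN, DLGAP5 and PBK fell (-0.15 to -0.27), with a median of -0.06 and 35 of the 50 negative. These were 2% higher and 6% lower, beside 3.05% and 3.16% of all genes tested. None passed with the offset. In the 12 fits without 1 library, PBK passed in 5, PLK1 in 4, DLGAP5 in 3 and ANLN in 2. Of 29 genes of fatty acid oxidation and PPAR alpha 4 fell (ACADM, DECR1, FABP1 and ACOT13) and none with the offset. None rose, and the list was balanced in sign, with 14 positive and 15 negative differences and a median of -0.02. In the 12 fits without 1 library, ACOT13 passed in 11, FABP1 in 7, ACADM in 4 and DECR1 in 2. Of 17 genes of the insulin-like growth factor system IGF2, IGF1R and IGF2R rose, the receptors by 0.21 and 0.16, none fell, and IGF2R also passed with the offset. Those that rose were 17.6% of this list, beside 3.05% of all genes tested. IGF2 and IGF1R passed in 6 and 5 of the 12 fits without 1 library, and IGF1R was 0.14 without TCIPP 25 µM number 1. At 25 µM 1 gene of this list was higher and 3 lower. The actin-binding genes TAGLN and TPM1 fell by 0.32 and 0.17 and passed with the offset. They passed in 5 and 4 of the 12 fits without 1 library. On unique exon reads TAGLN passed (-0.33) and TPM1 did not (-0.10). DLK1, a fetal liver gene, rose by 0.17, also with the offset.

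UGP2, which makes UDP-glucose for glycogen and glucuronides, spanned 120 to 159 CPM with TCIPP and 142 to 189 CPM with TCEP, and fell by 0.21 (SE 0.033, edgeR adjusted p = 0.00289), also with the offset. SUV39H2, a histone H3 lysine methyltransferase, was among the 15 largest decreases. It spanned 10.9 to 13.1 CPM with TCIPP and 14.6 to 17.2 CPM with TCEP, without overlap (log2 -0.41 ± 0.071 SE, edgeR adjusted p = 0.00407; -0.33 with the offset). LSM3, a splicing factor subunit, spanned 20.9 to 30.2 CPM with TCIPP and 28.5 to 35.0 CPM with TCEP (-0.37 ± 0.061 SE, edgeR adjusted p = 0.00332; -0.32 with the offset).

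The rest of the 15 largest changes in each direction held many genes whose reads are shared with similar or overlapping sequence. IRF9 (-0.60), SRP19 (-0.45), CFB_1 (-0.50) and ZNF816 (-0.48) had 3.24% to 7.03% unique exon reads, and ISY1-RAB43 (0.41) and MAGED4B (0.38) had 0.081% and 0.175%. Their values are uncertain for that reason. Of genes with nearly all reads unique, DUSP8, a phosphatase of MAP kinases, rose by 0.41 (SE 0.097), and IFT81 and ANKRD32 fell by 0.38 and 0.49, and none of these 3 passed with the offset.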

How the data were processed

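RNA from HepG2 cells was sequenced as poly-A libraries made with a stranded kit, as paired reads of 50 bases, per the labels' protocols. The deposited files give counts of exon reads per gene, made by the authors with CLC Genomics Workbench (version not given in the sources used here), per the series' design text, on hg19 (GRCh37), per the submitters' processing notes. No source used here says whether counting took strand into account, so overlapping and antisense genes may share reads. The authors' normalized values were not used, since each compound's table was normalized separately. Gene lengths, the unique share of exon reads and GC content describe the genes, the GC content being that of their exons in the reference.

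Libraries held 5353963 to 26771751 exon reads. Their number and depth limit the precision. Genes were kept with edgeR's filterByExpr, scaled by trimmed means (TMM) over all 15 libraries and fitted with glmQLFit (edgeR 4.0.16, R 4.3.3) with compound, level and replicate number as terms. Single concentrations and the interaction came from a model of the 4 treated groups with replicate number. P-values were adjusted by Benjamini and Hochberg over all 12510 genes. CPM values are TMM-scaled counts-per-million values. Shares of reads were compared by two-sided exact permutation within levels (smallest p 0.005), without matching by replicate number. The replicate numbers are the labels' own. Treated libraries with the same number correlated in their deviations from group means over 9298 genes (Pearson's r 0.347 to 0.577 in 18 pairs). The numbers were therefore taken to pair the treated libraries. In 36 treated pairs with different numbers r was -0.427 to 0.003. Deviations within a group sum to 0, so positive values for the same number force such negative ones, which add no separate support. Between DMSO and treated libraries with the same number r was -0.035 to 0.180 in 12 pairs, with a median of 0.097. The pairing rests on the correlation of same-numbered treated libraries and on no statement in the labels. P-values of the gene tests measure the spread between these cultures that is left after libraries with the same number are matched. They do not measure the whole spread between cultures, and without the matching no gene passed over both levels.

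The genes described singly were the 15 with the largest change in each direction among those that passed with a mean of at least 1 CPM, 5 in each direction at 25 µM, up to 4 members of each list with the smallest p, and a fixed set of markers. Other list members that passed were named after their values were seen. The comparison, its lists and its tests were chosen with earlier results of these data known. DESeq2 1.42.0, limma-voom (limma 3.58.1), other scalings, filters and read types, designs without the block or level, the inclusion of the DMSO libraries, and leaving out each library or number were tried, and an offset for GC content and length was added after the data were seen. The fit over both levels was run on simulated counts with known changes, and the outcome is not given here. A few genes are not reported here.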

Additional observations from a re-analysis of the deposited data

How the results depend on the processing

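The count of 777 genes over both levels was 0 without the replicate block, 36 without level, 11 with the 3 DMSO libraries in the fit, 1173 without the filter on low counts and 202 with the GC and length offset, and ran from 122 to 1078 when libraries were left out. Limma-voom, DESeq2, 2 other scalings, a minimum of 1 CPM, unique reads and whole-gene reads gave 532 to 1082 genes. At 25 µM (2094 genes) the count was 4 without the block, 1105 with DMSO libraries, 1144 with DESeq2 and 990 to 1902 with a library left out, the fewest without TCIPP number 1 (1158) and TCEP number 1 (990). At the low level (54) it was 0 without the block, 0 with DMSO libraries, 174 with DESeq2, 512 without the filter, 2 with the offset, 296 from that level's 6 libraries alone and 0 to 2 with any of the 6 left out. At the high level (53) the same alternatives gave 0, 0, 112, 395, 8 and 1, and 0 to 112 with a library left out (5, 28 and 112 without TCIPP number 1, 2 and 3, and 0, 0 and 2 without TCEP number 1, 2 and 3). The interaction (0 with edgeR) gave 2 genes with DESeq2, 53 without the filter and 0 to 2 with a library left out. Of 167 singly described genes that passed, 0 passed without the block, 51 with the offset, 63 in all 12 fits without 1 library and 24 in all 3 without 1 replicate number. AFP (0.0072), SPP1 (0.013) and TXN (0.035) changed sign with the offset. The causes of these shifts were not tested. Depth of 5353963 to 26771751 reads left a median interval of 0.13 to either side of a log2 difference.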
